A study of Rattus norvegicus with 113 samples.

Results

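The interleukin-1 family and the inflammasome were described by 10 rat genes, Il1a, Il1b, Il1rn, Il1r1, Il1r2, Il18, Il18bp, Il33, Casp1 and Nlrp3, out of 16691 genes that could be named on the arrays. They were chosen by name and by no measured value: a probe belonged to a gene when the identifier that the array design gives it led to that gene's symbol in RefSeq. Interleukin-1 alpha and beta are cytokines that reach cells through the receptor Il1r1. Il1rn encodes a receptor antagonist and Il1r2 a decoy receptor, and both keep the ligands from signalling. Interleukin-18 is a related cytokine that Il18bp binds and neutralizes, and interleukin-33 is a nuclear cytokine of the same family that is released from damaged cells and that astrocytes and oligodendrocytes of the brain are known to hold. Nlrp3 is a cytosolic sensor that assembles with an adaptor into the inflammasome, where Casp1 becomes active and cleaves the precursors of interleukin-1 beta and interleukin-18. In the brain Il1b, Casp1 and Nlrp3 are known mostly from microglia and from infiltrating myeloid cells after injury.

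The study asked how gene expression in the rat brain changes over the long term after traumatic brain injury. The 113 arrays, from Agilent and hybridized with a single dye, each held the RNA of the hippocampus or the ipsilateral cortex of an adult male Sprague-Dawley rat. TBI rats received a parasagittal fluid percussion injury, which the labels call moderate and the methods severe. Sham rats had the same anaesthesia and surgery with no injury, naive rats had neither, and tissue was taken at 24 hr, 2 weeks, 3 months, 6 months or 12 months. Each group held 4 rats, except at 24 hr in the hippocampus, where 2 sham rats, 3 TBI rats and no naive rat were measured. The labels name the arrays of a group as separate rats, and replicate numbers below are those of the labels. No allele differs between the groups, and drugs differ only by those of the anaesthesia and surgery, which naive rats did not have. Each tissue is a mixture of cell types, so that fewer cells of a type and less RNA per cell cannot be told apart in any result.

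The arrays were of 2 designs. Of these, 17 arrays (the hippocampus at 24 hr and 3 months) carried 30367 probes and the remaining 96 carried 45598, with 19277 probes in common. All 10 genes had a probe on the larger design and 9 on the smaller, which had none for Il1r1 and which read Nlrp3 through another probe. A level is the log2 of the processed signal after the median of the array was subtracted, so that 0 is the brightness of the middle probe of that array. Levels of different probes cannot be ranked against each other, and the levels given below are compared within a gene. A probe counted as detected on an array when the scanner software marked it as well above background. The share so marked per array ran from 41.2% to 93.0% (median 56.0%), and no probe of the 10 genes was saturated.

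Some arrays stood apart before any group was compared. The cortex sham array of replicate 3 at 2 weeks had a raw median signal of 1810 and the cortex naive array of replicate 4 at 2 weeks had 181, against 30.6 to 97.8 on the other arrays, and the first of them correlated with its group at only 0.70. Tests that use the cortex groups at 2 weeks are therefore given with and without these 2 arrays. In the hippocampus, the naive array of replicate 3 at 6 months was high for most of the 10 genes, with a level of 3.44 for Il1a, 1.98 for Il1b, 1.42 for Il1rn, 3.75 for Il18, 3.73 for Casp1 and 3.18 for Nlrp3. The summed level of 10 microglia and macrophage markers ranged from 8.18 to 11.33 over the 4 naive hippocampus arrays at 6 months, against 8.53 to 8.87 in sham. The part of other cell types in the high values of that array was not tested. In naive rats at 12 months, markers fixed for the tissues followed the labels. At 12 months the summed level of 6 cortex markers lay between 6.93 and 7.36 in the naive cortex and between 4.42 and 4.63 in the naive hippocampus, while 4 hippocampus markers gave 6.21 to 6.80 in the cortex and 7.76 to 8.01 in the hippocampus. Of these hippocampus markers Tdo2 was not well above background on any hippocampus array at any interval. Prox1 was not so on any hippocampus array at 24 hr or 3 months. In the cortex sham group at 3 months the sum of the cortex markers fell as low as 3.77, with a highest value of 6.99. The hippocampus sum was 6.31 to 6.99 there, and that group was kept whole in the tests below.

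The genes lie on 5 chromosomes of the rat build GRCr8. Il1a (chr3:136979804-136990236) and Il1b (chr3:137030200-137036581) neighbour each other, and Il1rn (chr3:27509836-27525738) is elsewhere on the same chromosome. Il1r2 (chr9:49879928-49920374) and Il1r1 (chr9:50000558-50076579) also lie close together. Casp1 (chr8:10746338-10882295) and Il18 (chr8:59802072-59829275) share a chromosome, as do Il18bp (chr1:165784916-165787990) and Il33 (chr1:237115478-237149897), and Nlrp3 lies at chr10:44826299-44853373.

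The promoters of 4 genes are shown because Il1b and Il1rn were called together at 24 hr in the hippocampus, and Casp1 and Nlrp3 at 2 weeks. Each is the 250 bases before a transcription start that RefSeq gives in GRCr8, read in the direction of the gene, at chr3:137036582-137036831 (minus strand) for Il1b, chr3:27520072-27520321 (plus strand) for Il1rn, chr8:10872580-10872829 (plus strand) for Casp1 and chr10:44827848-44828097 (plus strand) for Nlrp3. Capitals mark matches, on either strand, to the 5 motifs searched.
Il1b: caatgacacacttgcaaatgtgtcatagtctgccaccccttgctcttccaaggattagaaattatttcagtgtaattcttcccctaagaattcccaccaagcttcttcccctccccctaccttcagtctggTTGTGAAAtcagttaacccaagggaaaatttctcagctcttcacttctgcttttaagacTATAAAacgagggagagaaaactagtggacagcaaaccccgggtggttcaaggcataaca
Il1rn: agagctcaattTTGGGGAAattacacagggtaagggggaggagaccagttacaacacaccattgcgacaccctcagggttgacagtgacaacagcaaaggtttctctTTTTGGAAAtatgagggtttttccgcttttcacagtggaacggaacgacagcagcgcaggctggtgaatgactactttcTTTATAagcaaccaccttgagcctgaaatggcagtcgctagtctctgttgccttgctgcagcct
Casp1: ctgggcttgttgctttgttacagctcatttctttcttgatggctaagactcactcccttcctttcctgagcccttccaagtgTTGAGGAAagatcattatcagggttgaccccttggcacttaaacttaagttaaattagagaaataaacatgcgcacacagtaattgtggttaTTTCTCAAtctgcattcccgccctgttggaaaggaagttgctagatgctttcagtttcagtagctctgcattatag
Nlrp3: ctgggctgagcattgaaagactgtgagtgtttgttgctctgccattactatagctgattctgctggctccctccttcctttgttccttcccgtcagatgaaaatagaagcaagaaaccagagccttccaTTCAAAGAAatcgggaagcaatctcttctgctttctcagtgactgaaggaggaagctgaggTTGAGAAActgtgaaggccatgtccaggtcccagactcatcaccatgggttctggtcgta
The motifs were C/EBP (TTNNGNAA), the TATA box (TATAAA), the STAT element GAS (TTCNNNGAA), AP-1 (TGANTCA) and the kappaB motif. Over all 33469 promoters of the same length, 37.2% held the C/EBP letters, 12.9% the TATA box, 7.67% GAS, 6.34% AP-1 and 6.33% kappaB. Il1b held a C/EBP match 119 bases before the start and a TATA box 60 bases before it. Il1rn held C/EBP matches 239, 143 and 142 bases before the start, the last 2 overlapping, and a TATA box 64 bases before it. Casp1 had C/EBP matches at 168 and 76 bases, and Nlrp3 a GAS match at 121 bases and a C/EBP match at 60 bases. The letters of AP-1 and kappaB were not in any of these 4 windows. Among the other members in the table, Il1a held AP-1, C/EBP and TATA matches, Il1r1 a kappaB match 135 bases before the start, and Il33 C/EBP and TATA matches, while the windows of Il18 and Il18bp held none of the 5. These matches describe letters only.

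Detection differed widely among the 10 genes. Il18bp and Il33 were well above background on every array, and Il18 and Casp1 on all but 1 TBI array in the hippocampus and on all but a few sham arrays in the cortex (18 of 20 for Il18, 19 of 20 for Casp1). Il1b was the least often detected ligand: in the hippocampus it was well above background on 2 of 16 naive, 1 of 18 sham and 5 of 19 TBI arrays, and in the cortex on 3, 4 and 10 of 20. Il1r2 showed a like pattern, its cortex detection being 5, 6 and 9 of 20 and its hippocampus detection 1 of 16, 0 of 18 and 5 of 19. Il1rn was detected on 3 of 16 naive, 5 of 18 sham and 10 of 19 TBI arrays of hippocampus, but on 17, 16 and 19 of 20 cortex arrays. For Il1r1 the numbers were 5, 5 and 8 of 12 hippocampus arrays, then 17, 15 and 18 of 20 cortex arrays. The plot of detection by tissue and arm shows these shares.

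**Figure D1:**
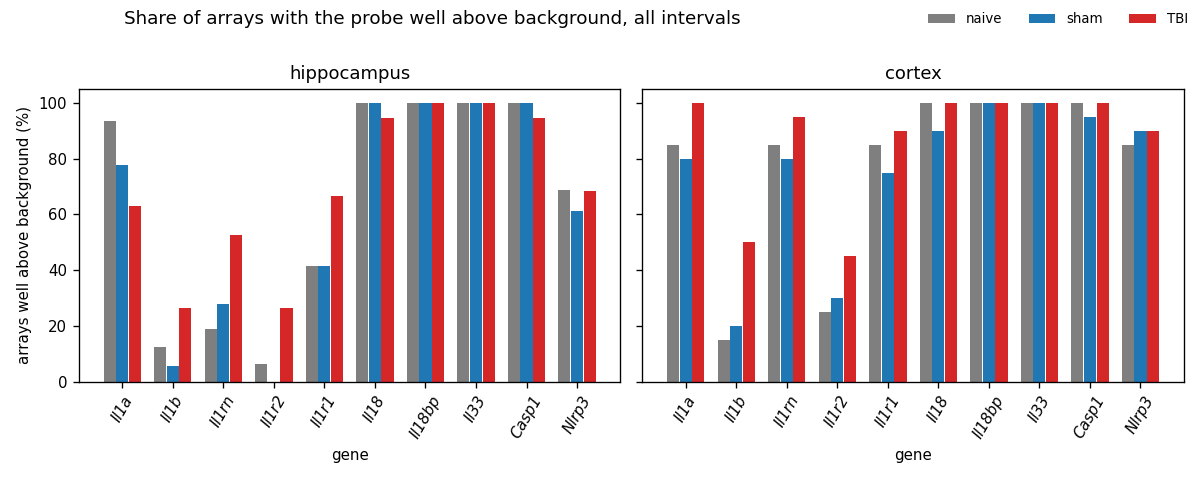
Share of arrays (percent) on which the probe of each gene was well above background, for naive, sham and TBI arrays of the hippocampus and of the cortex over all intervals. The bars of Il18bp and Il33 reach the top in every arm, and those of Il1b and Il1r2 are the lowest, with TBI the tallest of their 3 bars in both tissues.

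The range of group means also differed by gene. On the larger design the mean of Il1b ran from -2.98 in the naive hippocampus at 2 weeks to 2.33 in the TBI cortex at 24 hr, and that of Il1rn from -2.48 in the sham hippocampus at 2 weeks to 2.33 in the TBI cortex at 24 hr. For Il1r2 the lowest mean was -2.94, in the sham hippocampus at 12 months, and the highest 1.43, in the TBI cortex at 24 hr. Il18 (0.47 to 2.44), Il18bp (1.92, in the sham cortex at 2 weeks, to 3.56) and Il1r1 (-1.84 to 0.76) were highest in the same group, whereas Il1a (1.37), Casp1 (2.83), Nlrp3 (2.08) and Il33 (5.69) had their highest means in the TBI cortex at 2 weeks. Without the array that stands apart, the sham cortex at 2 weeks had an Il18bp mean of 2.6. On the smaller design, the hippocampus at 24 hr after TBI held the highest mean of Il1b (0.95), Il1rn (1.85), Il1r2 (1.66), Il18 (1.99), Il18bp (2.64) and Casp1 (1.92).

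At 24 hr in the hippocampus, Il1b, its antagonist Il1rn and the decoy receptor Il1r2 were higher after TBI than in sham, by at least 6.14-fold, by 7.25-fold and by at least 10.2-fold. The levels of Il1b were -1.84 and -1.76 in the 2 sham rats, where it was not well above background, and 1.65, 0.75 and 0.44 in the 3 TBI rats. Those of Il1rn were -1.07 and -0.95 in sham and 2.47, 1.44 and 1.63 after TBI. Those of Il1r2 were -2.76 and -1.94 in sham, not well above background, and 1.79, 1.94 and 1.25 after TBI. For each of the 3 genes every TBI array was above both sham arrays. The log2 difference between TBI and sham was 2.75 ± 0.35 (SE) for Il1b (adjusted p = 0.00777, limma with Benjamini-Hochberg adjustment over all probes tested), 2.86 ± 0.31 for Il1rn (adjusted p = 0.00596) and 4.02 ± 0.31 for Il1r2 (adjusted p = 0.00355). A gene is called below when this adjusted p is under 0.05. For Il1b and Il1r2, which the sham arrays did not measure above background, the folds above compare the TBI mean with the lowest detectable signal. Both passed the filter on dim probes through the TBI arrays alone. The sizes of their log2 differences rest on sham signals near background. Thus 3 of the 8 members tested were called, all higher, where 13.6% of all probes tested were called in either direction and 5.57% as higher.

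The other members at 24 hr in the hippocampus did not pass the adjusted test. Il18bp was at 1.18 and 1.69 in sham and at 3.20, 2.56 and 2.17 after TBI, a log2 difference of 1.21 ± 0.33 (adjusted p = 0.0596, limma). Casp1 was at 0.17 and 1.27 in sham and at 2.00, 1.87 and 1.87 after TBI, a difference of 1.20 ± 0.31 (adjusted p = 0.0556, limma). In both genes the TBI arrays lay above the sham arrays. Il33, at 5.04 and 5.07 in sham and at 4.63, 4.79 and 4.19 after TBI, differed by -0.52 ± 0.20 (adjusted p = 0.147, limma), and by 0.03 under another background correction (normexp, adjusted p = 0.929). Il1a, at -0.39 and -0.30 in sham and at -0.90, -0.44 and -1.64 after TBI, differed by -0.65 ± 0.34 (adjusted p = 0.245). These were the 2 members whose TBI arrays all lay below sham. The study's methods instead ask for a fold change of 1.4 or more together with a p, without adjustment, under 0.05, and 6 of the 8 members passed these thresholds, against 24.9% of all probes. Il18 differed by 0.35 ± 0.27 (adjusted p = 0.42), and the Nlrp3 probe of this design was well above background on 1 of the 5 arrays and was not tested.

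The 24 hr hippocampus arrays of sham and TBI were hybridized on separate slides and scanned on different days, which cannot be told apart from injury here, and there were only 2 sham arrays. With no filter on dim probes none of the 3 calls held (adjusted p = 0.0817 for Il1b, 0.0727 for Il1rn and 0.0658 for Il1r2, limma). Without sham replicate 1, Il1b lost its call (log2 difference 2.71, adjusted p = 0.0552, limma), and without sham replicate 2, Casp1 gained one (1.74, adjusted p = 0.0198). Markers of other cells moved with these results. The summed level of the 7 neutrophil markers measured was 2.35 to 2.55 in sham and 4.07 to 6.72 after TBI, with Camp, Cxcr2 and Elane not well above background on any of these arrays, and 1 of 3 tested was called. That of 10 microglia and macrophage markers was 8.35 to 8.58 in sham and 8.89 to 9.35 after TBI (2 of 10 called), and that of 4 monocyte markers 3.63 to 3.92 and 4.15 to 4.34 with Ccr2 not well above background. Their part in the result was not tested.

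The same genes varied widely among the cortex arrays at 24 hr. Il1b was at 3.67, 1.42, 0.37 and 3.84 after TBI, at -1.25, 0.61, -1.70 and 1.58 in sham and at -2.58, -1.55, -1.24 and -2.20 in naive rats. Il1rn was at 3.39, 1.79, 0.61 and 3.54 after TBI, 1.39, 0.61, -0.10 and 1.35 in sham and -0.58, 0.28, 0.84 and 0.74 in naive rats. Il1r2 was at 2.70, 0.35, -0.76 and 3.43 after TBI, -1.11, 0.62, -1.23 and 0.74 in sham and -1.73, -2.42, -1.49 and -0.97 in naive rats. In all 3 genes TBI replicates 1 and 4 were the highest arrays and TBI replicate 3 the lowest TBI array, within the range of sham, and sham replicates 2 and 4 were the 2 highest sham arrays of Il1b and Il1r2. The differences between TBI and sham were 2.52 ± 0.84 for Il1b (5.72-fold, adjusted p = 0.127, limma), 1.52 ± 0.60 for Il1rn (adjusted p = 0.178) and 1.68 ± 0.82 for Il1r2 (adjusted p = 0.269). Of the 10 members tested, 0 were called by limma, where 0.217% of all probes were, and 5 had an unadjusted p under 0.05.

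**Figure D2:**
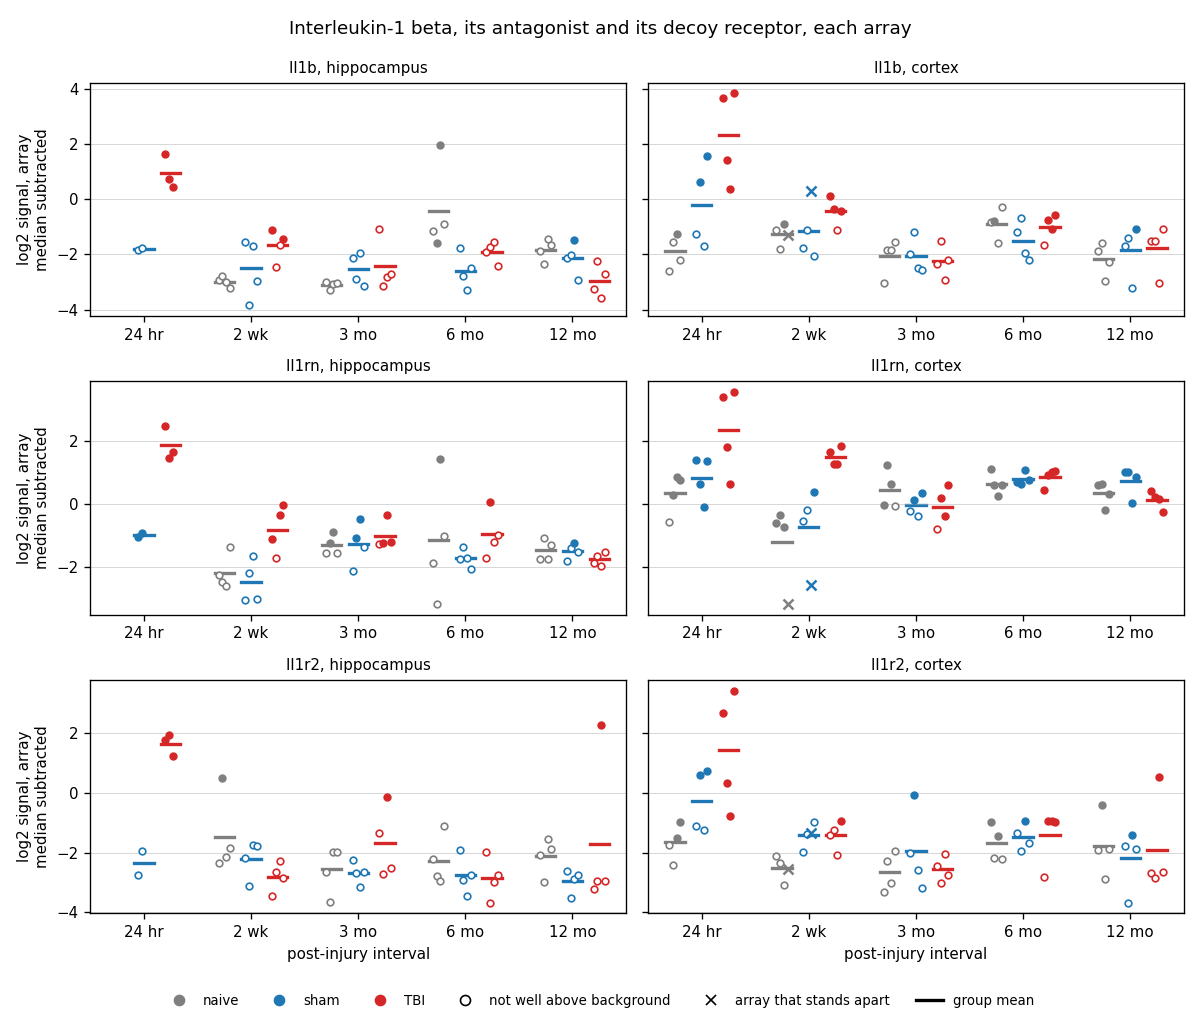
Level (log2 of processed signal, array median subtracted) of Il1b, Il1rn and Il1r2 on every array by interval in the hippocampus and the cortex, with naive in grey, sham in blue, TBI in red, group means as bars, open points where the probe was not well above background and crosses for the arrays that stand apart. The TBI points at 24 hr lie above both sham points in the hippocampus and overlap sham in the cortex, and later groups of Il1b and Il1r2 are mostly open points.

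The members of the inflammasome and Il18 were tighter in the cortex at 24 hr. Nlrp3 was at 1.93, 1.5, 1.41 and 2.05 after TBI, 0.11, 0.65, 0.56 and 1.4 in sham and 0.38, 0.56, 0.96 and 1.04 in naive rats. Il18 was at 2.88, 2.31, 2.03 and 2.52 after TBI, 0.35, 1.87, 1.01 and 1.99 in sham and 1.48, 0.83, 1.16 and 0.84 in naive rats. The TBI arrays of both genes lay above every sham and naive array, with sham replicate 4 nearest to them. The difference from sham was 1.04 ± 0.26 for Nlrp3 (adjusted p = 0.0778, limma) and 1.13 ± 0.33 for Il18 (adjusted p = 0.0987), while Casp1 differed by 0.67 ± 0.29 (adjusted p = 0.209), Il18bp by 0.62 ± 0.29 (adjusted p = 0.249), Il1a by 0.41, Il1r1 by 0.18 and Il33 by -0.18. At the thresholds of the methods 5 members passed, against 10.3% of all probes. Without TBI replicate 3, Nlrp3 (1.15, adjusted p = 0.047) and Il1rn (2.10, adjusted p = 0.0466) were called. Slide and injury cannot be told apart here, since no slide held both arms, and the summed level of the microglia and macrophage markers was 8.25 to 9.05 in sham and 9.08 to 9.64 after TBI, that of the neutrophil markers 2.99 to 5.60 and 4.08 to 7.42, and that of the monocyte markers 2.68 to 3.63 and 3.66 to 4.88. Their part in these differences was not tested.

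At 2 weeks in the hippocampus the 2 genes called were those of the inflammasome, the sensor Nlrp3 and the protease Casp1, both higher after TBI. Nlrp3 was at 1.04, 1.25, 1.73 and 1.65 after TBI, 0.13, 0.16, 0.40 and 0.52 in sham and 0.51, 0.90, 0.49 and 0.34 in naive rats. Casp1 was at 1.56, 1.44, 2.26 and 2.18 after TBI, 1.12, 1.11, 1.05 and 1.16 in sham and 0.99, 1.15, 0.98 and 0.88 in naive rats. Every TBI array was above every sham and naive array in both genes, and TBI replicates 3 and 4 were the highest. The difference between TBI and sham was 1.12 ± 0.17 for Nlrp3 (2.17-fold, adjusted p = 0.0251, limma) and 0.75 ± 0.17 for Casp1 (1.68-fold, adjusted p = 0.0452). These 2 of 7 members tested compare with 2.41% of all probes called in either direction and 1.06% as higher.

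Neither ligand of Il1r1 was called at this interval in the hippocampus. Il1a was at 0.72, 0.67, 0.81 and 0.80 after TBI, 0.30, 0.09, 0.08 and -0.90 in sham and 0.85, 0.01, 0.66 and 0.14 in naive rats. TBI lay above every sham array and overlapped naive, and TBI and sham had a difference of 0.86 ± 0.25 (adjusted p = 0.0789, limma). Il1b was well above background on 2 of 4 TBI arrays and on no sham or naive array, and was not tested. Il1rn was at -1.14, -1.74, -0.37 and -0.06 after TBI and, not well above background, at -3.05, -2.19, -1.66 and -3.02 in sham, and was too dim on TBI replicate 2 to enter the test. The TBI mean of Il1rn lay at least 1.5-fold above the lowest detectable signal of the sham arrays. Il18bp differed by 0.28 ± 0.12 (adjusted p = 0.178), Il18 by 0.35, Il1r1 by 0.30 and Il33 by 0.12.

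TBI and sham shared a slide at this interval. Neither gene was called when only these arms were fitted (adjusted p = 0.0551 for Nlrp3 and 0.0735 for Casp1, limma) or with no filter on dim probes (0.0993 and 0.161). Without any of sham replicate 2, sham replicate 3, TBI replicate 3 or TBI replicate 4 neither gene was called, with adjusted p values in limma of 0.0767, 0.0682, 0.0934 and 0.0688 for Nlrp3 and of 0.12, 0.133, 0.127 and 0.106 for Casp1. Without sham replicate 1, sham replicate 4 or TBI replicate 1 only Nlrp3 was called, with Casp1 at 0.0546, 0.0843 and 0.0535, and without TBI replicate 2 Nlrp3, Casp1 and Il1rn were. Another 2 probes of Nlrp3 gave differences of 1.12 (adjusted p = 0.0371) and 0.69 (adjusted p = 0.179). The summed level of the microglia and macrophage markers was 8.19 to 8.48 in sham, 8.32 to 8.76 in naive rats and 8.71 to 9.65 after TBI, with 9 of 10 markers called, while the neutrophil sum was 2.36 to 2.55 in sham and 2.30 to 3.34 after TBI. Their part in the result was not tested.

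In the cortex at 2 weeks 5 members were higher after TBI once the 2 arrays that stand apart were left out, a choice made after seeing the data: Nlrp3, Casp1, Il1rn, Il18 and Il1a. Nlrp3 was at 1.70, 2.37, 1.88 and 2.38 after TBI, 0.51, -0.03, -0.34 and 0.74 in sham and 0.08, 0.38, 0.58 and -1.11 in naive rats. Casp1 was at 2.98, 2.98, 2.59 and 2.75 after TBI, 1.63, 1.44, 0.23 and 1.91 in sham and 1.44, 1.52, 1.41 and -0.07 in naive rats. Il1rn was at 1.64, 1.24, 1.25 and 1.83 after TBI, -0.54, -0.19, -2.58 and 0.38 in sham and -0.62, -0.36, -0.74 and -3.18 in naive rats. The values of sham replicate 3 and naive replicate 4, the arrays left out, were the lowest of their groups in each of the 3 genes, and with or without them every TBI array was above every sham and naive array. Il18 was at 2.27, 2.73, 1.77 and 2.78 after TBI and at 0.99, 0.46, 0.37 and 1.56 in sham, and Il1a at 1.4, 1.42, 1.09 and 1.57 after TBI and at 0.58, 0.42, -0.14 and -1.48 in sham. These groups were apart as well, with sham replicate 4 the highest sham array for Il18 and the lowest for Il1a.

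Without those arrays the difference between TBI and sham in the cortex at 2 weeks was 1.68 ± 0.23 for Nlrp3 (adjusted p = 0.000768, limma), 1.17 ± 0.16 for Casp1 (adjusted p = 0.000816), 1.61 ± 0.22 for Il1rn (adjusted p = 0.000899), 1.39 ± 0.27 for Il18 (adjusted p = 0.00916) and 1.53 ± 0.38 for Il1a (adjusted p = 0.0342). Il18bp differed by 0.54 (adjusted p = 0.119), Il33 by 0.28 and Il1r1 by 0.19. These 5 members compare with 4.47% of all probes called in either direction and 4.05% as higher. With all arrays 0 of 8 members tested were called, where 0.00848% of all probes were, while 5 passed the thresholds of the methods against 4.05% of probes. The same 5 genes then differed by 1.86 for Nlrp3 (adjusted p = 0.328), 1.53 for Casp1, 2.22 for Il1rn, 1.54 for Il18 (adjusted p = 0.418) and 1.52 for Il1a (adjusted p = 0.502), on a scale where the median of all probes tested differed by 0.95, against 0.01 without the arrays. Without sham replicate 3 alone, 4 members were called and Casp1 was not (1.17, adjusted p = 0.115). As at 24 hr, no slide held both arms and their effects cannot be told apart, and the microglia and macrophage sum was 9.64 to 10.33 after TBI and 4.05 to 8.58 in sham, with 9 of 10 of these markers called without the 2 arrays. Their part was not tested.

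**Figure D3:**
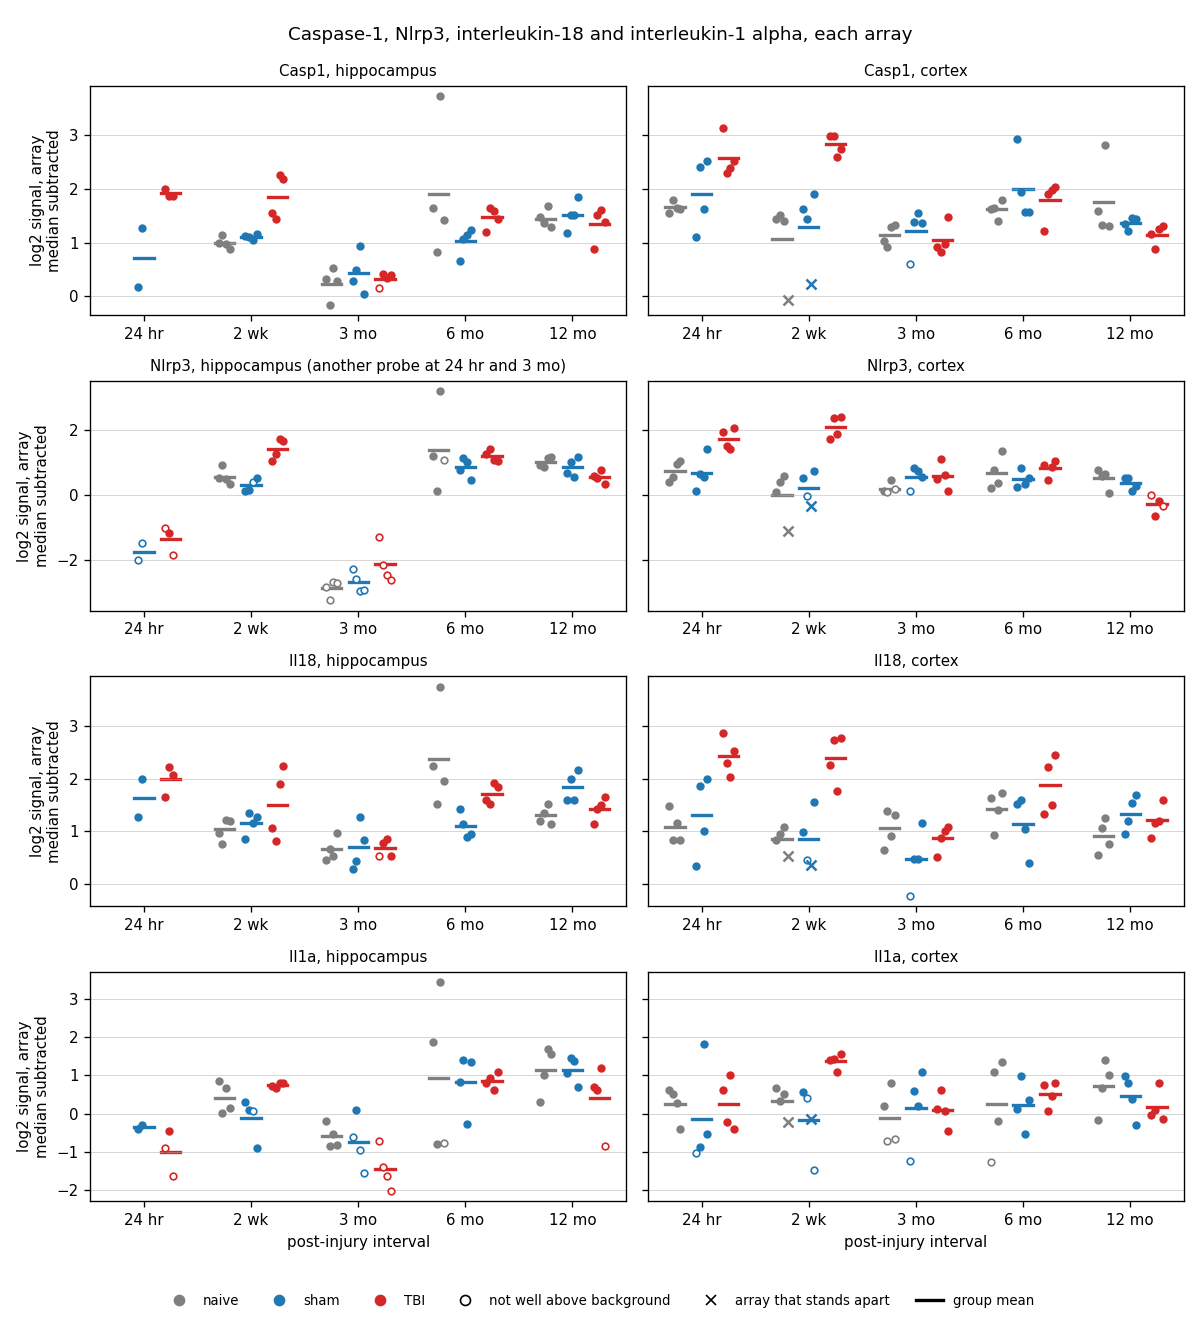
Level (log2 of processed signal, array median subtracted) of Casp1, Nlrp3, Il18 and Il1a on every array by interval in both tissues, with naive in grey, sham in blue, TBI in red, group means as bars, open points where the probe was not well above background and crosses for the arrays that stand apart. Nlrp3 was read by another probe in the hippocampus at 24 hr and 3 months. At 2 weeks in the cortex the TBI points of all 4 genes lie above every sham and naive point.

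Il1b at 2 weeks in the cortex was low and unevenly detected, at 0.13, -0.36, -1.12 and -0.41 after TBI with 3 of 4 arrays well above background and at -1.77, -1.12, 0.31 and -2.06 in sham, where only replicate 3, the array that stands apart, was. It could not be tested under the filter on dim probes.

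At 3 months limma called 0 of 4 hippocampus tests (1 with an unadjusted p under 0.05) and 0 of 6 cortex tests (0 with such a p), where 0.0134% and 0% of all probes were. The member past the thresholds of the methods was Il18bp in the hippocampus, at 1.89, 1.25, 1.51 and 2.24 after TBI, 1.25, 1.23, 0.86 and 1.04 in sham and 1.60, 1.41, 2.09 and 1.88 in naive rats. Sham was the low group there and TBI overlapped naive, and the difference between TBI and sham was 0.62 ± 0.21 (adjusted p = 0.767, limma). Il1b was not well above background on any array of either tissue at 3 months.

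At 6 months limma called 0 of 6 members tested in the hippocampus, and the same held for 8 tested in the cortex (0 and 2 with an unadjusted p under 0.05), where 0.0134% and 0.0805% of all probes were. Il18 was at 1.60, 1.52, 1.93 and 1.84 after TBI, 1.43, 1.14, 0.89 and 0.95 in sham and 2.25, 1.52, 3.75 and 1.96 in naive hippocampus. TBI lay above sham on every array, by 0.62 ± 0.32 (adjusted p = 1, limma), and among or below the naive arrays. Without naive replicate 3, which shares the estimate of the spread, the gene passed the thresholds of the methods (adjusted p = 0.774). In the cortex Il18 was at 1.34, 2.23, 1.51 and 2.46 after TBI and 1.53, 1.59, 1.04 and 0.41 in sham, which overlap, and differed by 0.74 ± 0.31 (adjusted p = 0.459), and Il18bp differed by 0.47 ± 0.17 (adjusted p = 0.389).

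At 12 months 0 of 6 hippocampus tests and 0 of 8 cortex tests were called by limma (1 and 2 with an unadjusted p under 0.05), where 0% of all probes were in both tissues. In the cortex Nlrp3 differed the other way from 24 hr and 2 weeks. Nlrp3 was at -0.01, -0.66, -0.20 and -0.36 after TBI, 0.50, 0.51, 0.12 and 0.26 in sham and 0.77, 0.58, 0.65 and 0.06 in naive rats. Every TBI array was below every sham and naive array, with a difference from sham of -0.65 ± 0.17 (adjusted p = 0.828, limma). Another 2 probes of Nlrp3 did not lie lower after TBI, with means of -2.22 and -1.49 against -2.63 and -1.51 in sham. Neither was well above background on any of these TBI arrays. Il1rn differed by -0.60 ± 0.25 in the same cortex (adjusted p = 0.828), at 0.41, 0.20, 0.13 and -0.28 after TBI and 1.01, 1.00, 0.03 and 0.83 in sham, and Il18 by -0.41 ± 0.16 in the hippocampus (adjusted p = 0.298). These arrays of TBI and sham shared a slide in each tissue, and the microglia and macrophage sum in the cortex was 8.05 to 8.30 after TBI and 8.06 to 8.36 in sham. The sum of 5 oligodendrocyte markers was 10.58 to 11.70 after TBI and 11.31 to 12.32 in sham, with 0 of 5 markers higher after TBI, a median difference of -0.58 and none called, and its part in these differences was not tested.

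Over the 10 comparisons of TBI with sham, 5 of 71 tests of a member were called, all higher after TBI, and 23 passed the thresholds of the methods. The share of all probes past these thresholds at 24 hr, 2 weeks, 3 months, 6 months and 12 months was 24.9%, 4.55%, 1.92%, 2.51% and 4.5% for hippocampus, and for cortex it was 10.3%, 4.05%, 2.95%, 3.94% and 1.58%. The share of all probes called at these intervals was 13.6%, 2.41%, 0.0134%, 0.0134% and 0% for hippocampus. For cortex it was 0.217%, 0.00848%, 0%, 0.0805% and 0%. The heat map of the differences between TBI and sham places the called cells at 24 hr and 2 weeks.

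**Figure D4:**
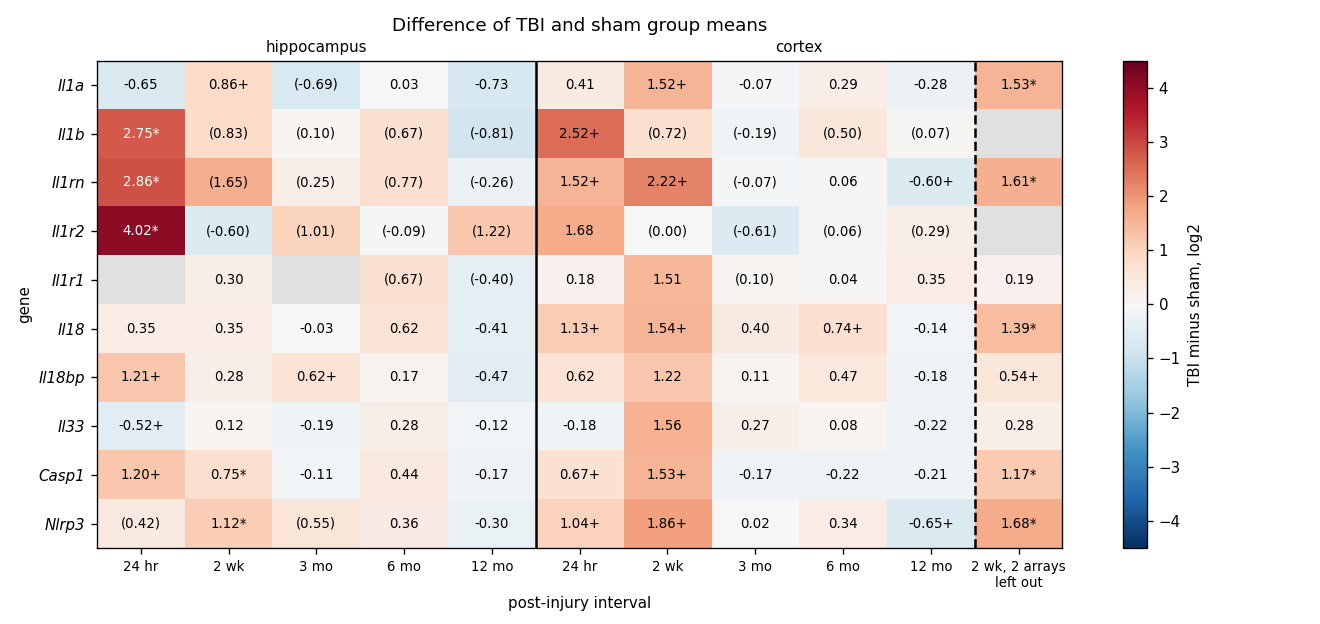
Difference between the TBI and sham group means (log2) for the 10 genes at 5 intervals in the hippocampus and the cortex, with a last column for the cortex at 2 weeks without the 2 arrays that stand apart. An asterisk marks a called gene, a plus one past the thresholds of the methods, parentheses one not tested, and grey no probe or value. In the hippocampus Il1b, Il1rn and Il1r2 carry asterisks at 24 hr and Casp1 and Nlrp3 at 2 weeks.

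Whether the TBI effect differed between tissues or intervals was tested directly as a difference of differences, in 7 comparisons with 58 tests of a member. Of these 0 were called by limma and 3 had an unadjusted p under 0.05, which were the 3 past the thresholds of the methods. Between the tissues, 3.59%, 0%, 0%, 0.004% and 0% of all probes were called at the 5 intervals in order and 14.6%, 2.33%, 4.17%, 1.72% and 4.81% passed the thresholds; in the cortex relative to 24 hr it was 0% called at 2 weeks and at 6 months, and 2.92% and 5.95% past the thresholds. Without the 2 arrays that stand apart, at 2 weeks 0% and 7.17% were called and past the thresholds between the tissues, and 0.173% and 8.66% in the cortex relative to 24 hr, with 0 members called. At 24 hr the effect on Il1rn was 1.33 larger in the hippocampus than in the cortex, with a 95% interval from -0.62 to 3.29 (adjusted p = 0.497, limma). The interval is wide, and these tissues were on different array designs at 24 hr. For Il1b and Il1r2, which the hippocampus sham arrays did not measure above background, the size of this difference is not given. At 2 weeks the effect on Il18 was -1.19 ± 0.49 in the hippocampus relative to the cortex (adjusted p = 0.431), and -1.04 without the 2 arrays that stand apart (adjusted p = 0.39). In the cortex the effect at 6 months relative to 24 hr was -1.46 ± 0.67 for Il1rn (adjusted p = 0.5) and -0.89 ± 0.42 for Casp1 (adjusted p = 0.52).

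Comparison of sham with naive rats asked what anaesthesia and surgery alone did, and 3 of 57 tests of a member were called over 9 comparisons, all lower in sham. Of all probes 8.97%, 0%, 3.54% and 3.11% were called in the hippocampus at 2 weeks, 3 months, 6 months and 12 months, and 19.2%, 0%, 0.409%, 0% and 4.35% in the cortex from 24 hr on. In the cortex at 2 weeks limma called 0 of 5 members tested (0 with an unadjusted p under 0.05), and without the 2 arrays that stand apart 0 of 8, where 0.0168% of all probes were called and Il1r1 (0.46, adjusted p = 0.623) had the only unadjusted p under 0.05. The receptor Il1r1 was called at 2 weeks in the hippocampus and at 12 months in the cortex. At 2 weeks in the hippocampus it was at -1.06, -0.92, -1.70 and -0.99 in sham, -0.72, -0.56, -0.33 and -0.06 in naive rats and -1.05, -0.72, -0.49 and -1.20 after TBI. All sham arrays lay below the naive arrays (difference -0.75 ± 0.21, adjusted p = 0.0457, limma, where 3.11% of all probes were called lower), and TBI overlapped both. In the same comparison all 3 blood markers measured were called lower in sham (summed level 9.88 to 10.37, against 10.71 to 11.21 in naive rats), and the sum of 4 endothelial markers was 7.08 to 7.30 in sham and 7.32 to 7.56 in naive rats. At 12 months in the cortex it was at -0.65, -0.84, -0.31 and -0.28 in sham, 0.37, -0.01, 0.07 and 0.18 in naive rats and -0.08, -0.48, -0.34 and 0.20 after TBI. Sham was again below naive on every array (difference -0.68 ± 0.17, adjusted p = 0.0441, limma, where 0.282% of all probes were called lower). There the endothelial sum was 7.5 to 7.74 in sham and 7.84 to 7.97 in naive rats, and the blood sum 9.70 to 9.94 and 10.13 to 10.69, with none of these markers called. The part of these cells in both calls was not tested. In both cases sham and naive lay on separate slides, so that slide and surgery cannot be told apart.

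The third call was Il18 in the hippocampus at 6 months, whose levels are given above, with a difference between sham and naive of -1.27 ± 0.31 (adjusted p = 0.0176, limma, where 0.191% of all probes were called lower). Sham and naive shared a slide there. Without naive replicate 3, the highest Il18 of its group, the difference was -0.81 ± 0.24 and no longer called (adjusted p = 0.0503, against 3.13% of probes). In the other direction Il18 was 0.53 higher in sham than in naive hippocampus at 12 months (adjusted p = 0.09, limma), at 1.60, 2.00, 1.59 and 2.16 in sham and 1.19, 1.35, 1.53 and 1.15 in naive rats, with the groups apart. At 12 months these groups lay on separate slides, so that slide and surgery cannot be told apart. Leaving out replicate 1, 2, 3 or 4 of every group gave 0, 1, 1 and 1 calls of a member between sham and naive.

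TBI was also compared with naive rats, and 9 of 64 tests of a member were called, 8 higher and 1 lower after TBI, in 9 comparisons that share the TBI arrays with those against sham. Of all probes 12.8%, 0.0062%, 3.82% and 2.12% were called in the hippocampus from 2 weeks on and 17.5%, 0.12%, 0.561%, 0.253% and 5.3% in the cortex from 24 hr on. TBI and naive never shared a slide in the comparisons with a called member, and the effects of slide and injury cannot be separated in them. In the cortex at 24 hr 6 members were called: Il1b (difference 4.22 ± 0.84, adjusted p = 0.0102, limma), Il1r2 (3.08, adjusted p = 0.0264), Il1rn (2.01 ± 0.60, adjusted p = 0.0401), Il18 (1.36, adjusted p = 0.0195), Nlrp3 (0.99, adjusted p = 0.0245) and Casp1 (0.93, adjusted p = 0.044), where 6.38% of all probes were called higher. Il1b was well above background on only 1 of the 4 naive arrays and Il1r2 on 2, so that the sizes of these 2 differences rest on signals near background. The TBI arrays of Il1b and Il1r2 all lay above the naive arrays, those of Il1rn overlapped them, and sham overlapped naive in all 3 genes. Il1r1 differed by 0.76 (adjusted p = 0.0716).

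At 2 weeks in the hippocampus TBI was above naive for Casp1 (0.86 ± 0.17, adjusted p = 0.0096, limma) and Nlrp3 (0.85 ± 0.17, adjusted p = 0.0107), where 4.18% of all probes were called higher. In the cortex at 2 weeks 0 members were called by limma with all arrays (4 with an unadjusted p under 0.05), and 4 without the 2 arrays that stand apart: Il1rn (2.07), Nlrp3 (1.74), Il18 (1.43) and Casp1 (1.37), where 4.79% of all probes were called. At 12 months in the cortex Nlrp3 was lower after TBI than in naive rats (difference -0.82 ± 0.17, adjusted p = 0.0194, limma, where 1.9% of all probes were called lower), with the levels given above and no overlap. The other 2 probes of Nlrp3, near background there, overlapped, with means of -2.22 and -1.49 after TBI and -2.01 and -1.39 in naive rats. The oligodendrocyte sum was 10.58 to 11.70 after TBI and 12.02 to 12.65 in naive rats, and its part was not tested. The number called depended on the replicates: leaving out replicate 1, 2, 3 or 4 of every group gave 3, 2, 9 and 1 calls against naive.

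Naive rats gave the levels of the genes without surgery in both tissues at 2 weeks, 6 months and 12 months, 12 arrays each on the larger design, and 5 of 8 members tested were called between the tissues, against 29.6% of all probes (19.8% higher in the hippocampus, 9.82% lower). At each interval the tissues lay on separate slides and scan days, so that tissue cannot be told apart from slide or scan. Il1rn ran from -3.18 through a median of 0.26 to 1.11 in the cortex and from -3.19 through -1.76 to 1.42 in the hippocampus, and was well above background on 11 and 1 of 12 arrays. Il1r1 ran from -1.29 through 0.14 to 1.07 in the cortex and from -2.53 through -1.06 to -0.06 in the hippocampus, detected on 11 and 5 arrays. Il1rn was thus mostly below the detectable level in the hippocampus, and the size of its difference rests on such signals. It passed the filter on dim probes through the cortex arrays alone. The size of the Il1r1 difference rests in part on signals near background too. Both were lower in the hippocampus, with ranges that overlapped, by a difference of -1.52 ± 0.33 for Il1rn (adjusted p = 0.000566, limma) and of -1.24 ± 0.25 for Il1r1 (adjusted p = 0.000198).

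The cytokine Il33 and, less firmly, Il18 and Nlrp3 were higher in the naive hippocampus. Il33 ran from 3.48 through 5.17 to 5.57 in the cortex and from 4.99 through 5.61 to 5.72 in the hippocampus (difference 0.51 ± 0.17, adjusted p = 0.0232, limma). Il18 ran from 0.53 through 1.02 to 1.73 and from 0.77 through 1.29 to 3.75 (0.51 ± 0.19, adjusted p = 0.0363), and Nlrp3 from -1.11 through 0.48 to 1.36 and from 0.11 through 0.90 to 3.18 (0.60 ± 0.23, adjusted p = 0.0459). The tissues overlapped in all 3 genes. Without the high hippocampus array of replicate 3 at 6 months, Il18 (0.35, adjusted p = 0.078) and Nlrp3 (0.41, adjusted p = 0.0979) were no longer called, whereas Il33 (0.50, adjusted p = 0.0351), Il1rn (-1.76, adjusted p = 6.01e-06) and Il1r1 (-1.23, adjusted p = 0.000341) were, against 26.7% of probes. Without the 2 arrays that stand apart, of which the naive cortex array is in this comparison, 4 members were called, against 38.2% of probes: Il18 (0.49, adjusted p = 0.0394), Il33 (0.37, adjusted p = 0.0071), Il1rn (-1.74, adjusted p = 8.91e-05) and Il1r1 (-1.39, adjusted p = 3.95e-05), whereas Nlrp3 (0.49, adjusted p = 0.0886) was not. With slide as a random block 3 were called, Il33, Il1rn and Il1r1. Casp1 differed by -0.03, Il18bp by -0.04 and Il1a by 0.40 (adjusted p = 0.391). The plot of the naive arrays shows both tissues side by side.

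**Figure D5:**
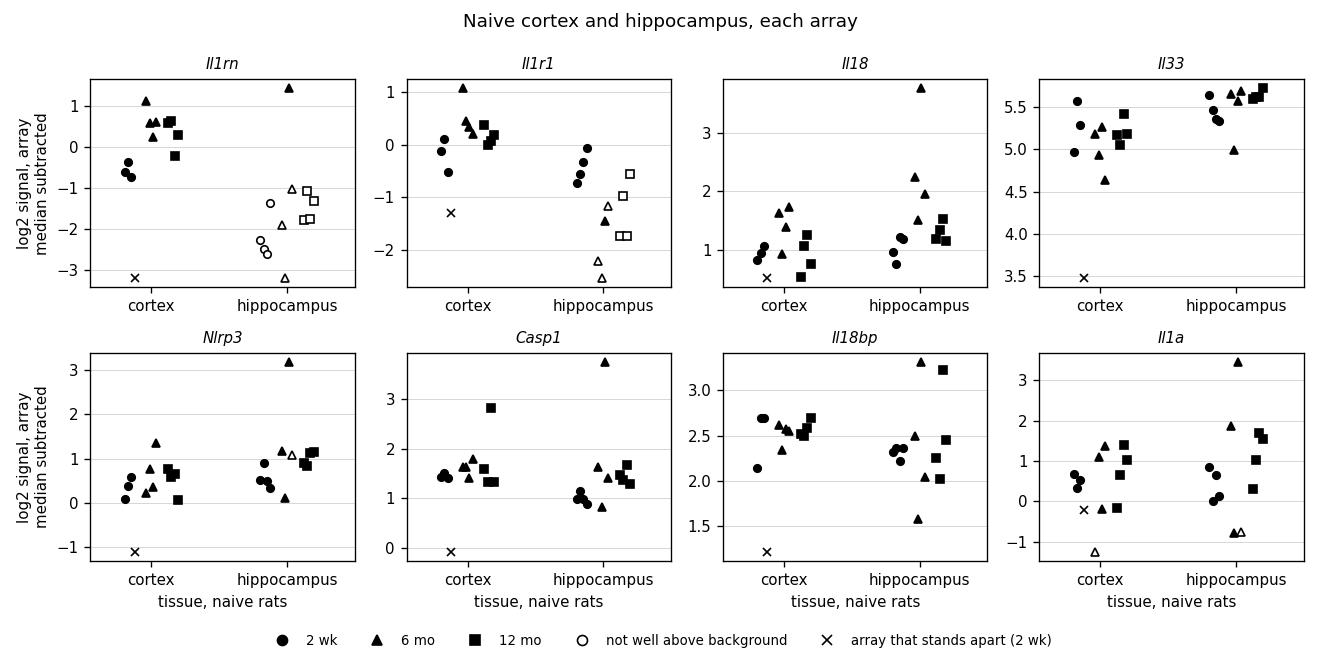
Level (log2 of processed signal, array median subtracted) of 8 genes on each naive array of the cortex and the hippocampus, with a shape for each interval, open points where the probe was not well above background and crosses for the array that stands apart. For Il1rn and Il1r1 the hippocampus points lie mostly below the cortex points and are mostly open, and for Casp1 and Il18bp the tissues overlap.

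The other genes of the pathway were taken from lists named for their role. The list of inflammasome parts was drawn broadly and also holds genes that are not components of the complex, such as Card9, Txnip, P2rx7 and Panx1. At 24 hr in the hippocampus, among 11 other parts of inflammasomes measured, 6 were tested, of which Casp4, which senses lipopolysaccharide in the cytosol (1.55 ± 0.25, adjusted p = 0.0152, limma), and the adaptor Pycard (1.57 ± 0.31, adjusted p = 0.0256) were called higher and Txnip, a thioredoxin-binding protein (-1.56 ± 0.27, adjusted p = 0.0177), lower. Mefv differed by 1.13 (adjusted p = 0.104). The median difference over the 11 was 0.65, with 9 above 0, and that over all probes was 0.05 (-0.02 over those tested). Among 15 genes known to be induced by interleukin-1, 9 were tested and 5 called, all higher: the chemokines Ccl2 (6.21 ± 0.78, adjusted p = 0.00776) and Cxcl1 (at least 13.4-fold), the iron carrier Lcn2 (7.06 ± 1.26, adjusted p = 0.0205), the protease Mmp9 (1.99 ± 0.39, adjusted p = 0.0249) and the prostaglandin synthase Ptges (at least 4.62-fold). Cxcl1 and Ptges were not well above background on any sham array and passed the filter on dim probes through the TBI arrays alone. The median difference of these induced genes was 1.95, with 13 of 15 above 0. Of 18 other receptors and signalling parts, 8 were tested and 2 called higher, Irak3, a negative regulator (0.96 ± 0.15, adjusted p = 0.0147), and the adaptor Myd88 (0.76 ± 0.16, adjusted p = 0.033), with a median difference of 0.11, and Sigirr differed by 0.56 (adjusted p = 0.118). The background of 13.6% of all probes called at this interval holds for these lists too.

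At 2 weeks in the hippocampus, where 2.41% of all probes were called and 1.06% as higher, 9 of the 10 genes measured from the inflammasome list were tested and 4 called, all higher: Card9 (1.1 ± 0.19, adjusted p = 0.0288, limma), Casp4 (0.91 ± 0.21, adjusted p = 0.0489), Casp8 (0.92 ± 0.17, adjusted p = 0.0293) and the sensor Mefv (1.61 ± 0.29, adjusted p = 0.0299). Of these, Card9 is not a component of the complex. Pycard differed by 1.26 ± 0.31 (adjusted p = 0.0538). The median difference of the list, over all genes measured, was 0.85, against -0.19 over all probes and -0.11 over those tested. Of the genes induced by interleukin-1 0 of 8 tested were called, where the adhesion molecule Icam1 (0.61, adjusted p = 0.0515) and Mmp9 (-0.58, adjusted p = 0.196) passed the thresholds of the methods, and of the receptors and signalling parts 0 of 9 with none past them. These lists' medians were 0.09 and -0.15. In the same comparison 9 of 10 microglia and macrophage markers were called, and their part was not tested.

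At 24 hr in the cortex no gene of the lists was called, and 8 of 10 inflammasome parts, 3 of 10 induced genes and 3 of 10 receptors and signalling parts passed the thresholds of the methods, against 10.3% of all probes. The list medians, over all genes measured, were 0.67, 0.49 and -0.18, against -0.06 over all probes and 0.12 over those tested. Among the inflammasome parts Txnip differed by 1.41 (adjusted p = 0.0736, limma), Mefv by 1.17 and Casp4 by 1.04, among the induced genes Ccl2 by 3.44 (adjusted p = 0.138), Lcn2 by 3.20 (adjusted p = 0.0829) and Icam1 by 0.98, and among the signalling parts Myd88 by 0.91, Irak2 by 0.67 (adjusted p = 0.07) and Irak3 by 0.50. With the 2 arrays that stand apart left out of the cortex at 2 weeks, 4 of 9 inflammasome parts were called higher and 1 lower, against 4.47% of all probes called. Pycard differed by 2.18 ± 0.24 (adjusted p = 0.000223, limma), Mefv by 2.16 ± 0.33 (adjusted p = 0.00177), Casp4 by 1.41 ± 0.19 (adjusted p = 0.000746), Casp8 by 0.89 ± 0.20 (adjusted p = 0.0204) and the channel Panx1 by -0.59 ± 0.14 (adjusted p = 0.0263). Of the induced genes 3 of 9 were called, Ccl2 (3.09 ± 0.32, adjusted p = 0.000133), Lcn2 (1.89, adjusted p = 0.0441) and Vcam1 (0.54, adjusted p = 0.0454), and of the receptors and signalling parts 0 of 8. With all arrays no gene of the lists was called there, Ccl2 being nearest (3.38, adjusted p = 0.0833).

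At the later intervals no gene of the lists was called between TBI and sham, and few passed the thresholds of the methods. In the hippocampus the only such gene was Casp4 at 3 months (0.74, adjusted p = 0.767, limma). In the cortex they were Txnip (1.12) and Mmp9 (-0.59) at 3 months, Ccl2 (1.45, adjusted p = 0.317), Lcn2 (1.12), Nlrp1a (0.88) and Txnip (0.77) at 6 months, and Mmp3 (0.84), Lcn2 (-0.55) and the ATP receptor P2rx7 (-0.94) at 12 months.

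The genes most like 4 of the members were named by the Pearson correlation of group means over the 24 groups of the larger design, after each tissue's mean was subtracted, among 11398 candidate genes. Groups share arrays' slides and, at some intervals, rats, and no test was made. On the 96 arrays of this design the Il1b probe was well above background on 22. The probes of Il18, Casp1 and Il33 were so on 94, 95 and 96. The group means of Il1b thus rest largely on signals near background, and its correlations cannot be ranked against those of the other members. For Il1b the nearest were Lst1 (0.91), Mcm3 (0.897) and Bcl3 (0.888), for Il18 Ifi27l2b (0.932), Batf (0.907) and Ifi44 (0.898), for Casp1 Rac2 (0.922), Hcst (0.92) and Hlx (0.916), and for Il33 Selenop (0.949), Cyp7b1 (0.926) and Ndp (0.914). Without the 3 cortex groups at 2 weeks, 21 groups remained. The correlation of Il33 was then 0.845 with Selenop, 0.7 with Cyp7b1 and 0.756 with Ndp. For the genes nearest to Il18 it was 0.931, 0.904 and 0.887, and for those nearest to Casp1 0.888, 0.885 and 0.867. The genes nearest to Il1b gave 0.925, 0.918 and 0.901, with the same limit from signals near background.

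Single arrays of Il1r2 stood high outside the early intervals. At 12 months the hippocampus of TBI rats gave -3.22, -2.95, 2.29 and -2.96 and the cortex -2.68, -2.84, 0.55 and -2.63, and at 2 weeks the naive hippocampus gave -2.35, 0.49, -2.14 and -1.83. In each group the high array was the only one well above background, and Il1r2 did not enter the test there.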

How the data were processed

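Per array, the authors deposited the spot intensities of Agilent Feature Extraction, whose processed signal was background-subtracted but not normalized between arrays, and, beside it, intensities divided by a constant of each array (near percentile 74.9 in the median array), with a lowest value of 0.01. Its values lay within 0.05 log2 of the deposited signal over that constant for 84.1% to a median of 99.9% of probes.

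Spots of a probe were averaged, log2 of the processed signal was taken and the array median subtracted. Probes were named through RefSeq identifiers, which covered 46.3% of probes on the larger design and 61.4% on the smaller. Each gene was read from the probe with the highest mean signal. A probe entered a test if some group compared had it well above background on all its arrays. All groups of a tissue and interval entered 1 fit without a block (limma 3.58.1, R 4.3.3, data.table version 1.17.8), with Benjamini-Hochberg adjustment over all probes tested, and were called at an adjusted p under 0.05. Naive tissues were compared with interval as a covariate. Every p-value given as adjusted comes from limma. The fit was tested on simulated data. Figures used Python 3.11.15, pandas 2.3.3 and matplotlib 3.10.9.

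The members, gene lists, comparisons and alternatives were chosen with earlier results of these data known. The genes named are the 10 members, from the gene lists those called between TBI and sham and up to 3 per list past the methods' thresholds, and the 3 genes most like each of 4 members. Same-numbered naive samples of both tissues at 2 weeks, 6 months and 12 months come from the same rat by the deposited names, and their deviations correlated at 0.121 to 0.26, -0.291 to 0.0599 and 0.264 to 0.337. Normexp (offset 50) used the median spot signal, since the mean signal was not analysed here. Alternatives were other scalings, filters, blocks and samples. The number of arrays limits the precision of all values.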

Additional observations from a re-analysis of the deposited data

Results flagged for a closer look

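Each member was paired with each group of 4 arrays in which it was well above background on every array, which gave 158 pairs. Of these, 5 held an array far from the other 3. Chance alone flags about 1 in 20 such pairs, and 5 is not above that share. Pairs of the same group share their arrays. Replicate 3 of the cortex sham group at 2 weeks was low for Il18bp (-0.13, against 2.49 to 2.71 on the other arrays of its group) and for Il33 (0.26, against 5.25 to 5.54). Replicate 4 of the cortex naive group at 2 weeks was low for Casp1 (-0.07, against 1.41 to 1.52). These are the arrays whose raw median signal stood apart. Replicate 1 of the cortex TBI group at 6 months was low for Il1r1 (-1.03, against 0.70 to 0.94) and for Casp1 (1.22, against 1.90 to 2.04).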

How the results depend on the processing

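Counts of members called moved with the processing. For TBI against sham in the hippocampus at 24 hr, 3 were called, against 5 with normexp background correction and 0 with no filter on dim probes, and in the hippocampus at 2 weeks 2, against 0 with no filter, 1 when a probe had to be well above background in at least 50% of the arrays, 0 with the replicate number as a block (Nlrp3 adjusted p = 0.0547 and Casp1 0.0858 in limma) and 0 when only the groups compared were fitted. In the cortex at 24 hr 0 became 2 with normexp and 2 with no filter, and at 2 weeks 2 with no filter and 5 without the 2 arrays that stand apart. Between sham and naive 3 became 1 under the 50% filter. Between the naive tissues 5 became 3 with the 75th percentile, 3 with the authors' values, 3 with normexp, 2 with no filter and 3 with slide as a random block. Without the hippocampus naive replicate 3 at 6 months, chosen after seeing the data, the counts were 2 for sham against naive, 9 for TBI against naive and 3 between naive tissues. Il33 in the hippocampus at 24 hr turned from -0.52 to 0.03 with normexp (adjusted p = 0.929). The cause of these changes was not tested. No share of all probes called is given beside the counts here or in the next paragraph, so they cannot be read against it.

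Leaving out 1 replicate gave 2 to 4 calls in the hippocampus at 24 hr, 0 to 3 at 2 weeks, 0 to 2 in the cortex at 24 hr, 0 to 4 at 2 weeks, 0 to 2 for sham against naive, 1 to 9 for TBI against naive, 2 to 5 between naive tissues and 0 in all other comparisons. Over the alternatives the adjusted p ran from 0.00357 to 0.0658 for Il1r2, 0.00956 to 0.0817 for Il1b and 0.00678 to 0.0727 for Il1rn in the hippocampus at 24 hr, and from 0.00485 to 0.179 for Nlrp3 and 0.0117 to 0.161 for Casp1 at 2 weeks. Same-numbered TBI and sham samples correlated in their deviations at -0.38 to 0.303. Only in the cortex at 12 months did all 4 pairs exceed 0.1, and the block changed no call there. A block by rat left the tests between tissues at 0 calls. The replicate block gave 2 calls for sham against naive, 8 for TBI against naive and 5 between naive tissues. In the cortex at 2 weeks the median difference of all probes between TBI and sham was 0.95 under the array median, 0.19 under the 75th percentile, 0.46 after quantile normalization, -0.39 with the authors' values and 0.82 with normexp. Il1b, Il1r2 and, in the hippocampus, Il1rn lay near background on most arrays, which limits their values to bounds there.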
